A study of Homo sapiens with 12 samples.

Results

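The departures from additivity between DBIC and hemin were described gene by gene from RNA-seq of total RNA of A375, a human melanoma cell line. The rule was a comparison of all 4 groups on every gene, so all 12 of the 12 samples of the series entered it, and 14287 of the 20263 genes listed had enough counts to be tested. The groups of 3 samples each were control cells (Ctrl, with no vehicle named in the labels), cells treated with DBIC, cells treated with hemin, and cells treated with both (DBIC+Hemin). DBIC, which the study writes DdBIC, is the dodecyl ester of a benzimidazole carboxylic acid that was studied as a trigger of gasdermin C-mediated pyroptosis, and hemin is the chloride of oxidized heme. The cells of every group carried the wild-type genotype label. Dose and time of the treatments of these samples are not given in the sources used here. The labels do not say that the 3 samples of a group came from separate cultures, so p-values measure the spread between these samples, which may be technical, and the data come from a single line.

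Library totals ranged from 37951275 to 44358912 counts. Levels are given as CPM, the read count of a gene relative to the scaled total of its library. Of the 8 markers of the melanocyte lineage, SOX10 was at 548 to 769 CPM and PRAME at 110 to 136 CPM, whereas PMEL (at most 1.11 CPM), MLANA (at most 0.435 CPM) and TYR (0 in 10 of 12 libraries) were nearly absent, so the pigment markers go against a pigmented cell. The 8 markers summed to 774 to 803 CPM in Ctrl, 846 to 910 with DBIC, 703 to 708 with Hemin and 697 to 796 with both, and their part in the results was not tested. The 10 markers of other cell types summed to 4.29 to 5.47 CPM, with PTPRC at 0 in 12 of 12 libraries. In such bulk samples, fewer cells of one state and less RNA per cell cannot be told apart.

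The design is a 2 by 2 factorial, and additivity was defined on the log2 scale. The interaction is the DBIC effect in the presence of hemin (DBIC+Hemin against Hemin) minus the DBIC effect in its absence (DBIC against Ctrl). An interaction of 0 means that DBIC multiplied the level of a gene by the same factor with and without hemin, and the additive expectation for the combination is then the DBIC level times the Hemin level over the Ctrl level. As background, immediate early genes such as the EGR, FOS and JUN families are switched on by growth factor and stress kinases without new protein synthesis, and NF-kB drives chemokines together with its own inhibitors. The integrated stress response is a kinase relay, in which PERK and its relatives phosphorylate eIF2alpha and so favour translation of ATF4 and its target CHOP (DDIT3). Heme is the prosthetic group of cytochromes, represses its own synthesis through ALAS1, and releases the repressor BACH1 from genes such as HMOX1.

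Promoters of damped rises from the immediate early, zinc and NF-kB groups are shown first, because the binding motifs in them are a feature that the fits did not use. The sequences are RefSeq's for build GRCh38.p14 and cover the 250 bases before the annotated start, and matches were searched on both strands. EGR1 (chr5:138465229-138465478, plus strand) encodes the immediate early zinc finger factor whose departure was second in size among the damped rises named here by rule. Its capitals mark 2 matches to the CArG box, the motif of serum response factor, which begin 105 and 83 bases before the start.

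EGR1: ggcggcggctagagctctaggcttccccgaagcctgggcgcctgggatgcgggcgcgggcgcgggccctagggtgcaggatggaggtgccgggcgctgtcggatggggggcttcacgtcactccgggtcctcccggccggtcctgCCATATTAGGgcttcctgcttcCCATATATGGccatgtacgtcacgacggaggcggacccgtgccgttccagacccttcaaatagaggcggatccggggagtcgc

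A CArG box stood in 1.07% of the 10930 promoters of tested genes, and 4 of them (0.0366%) held 2 or more. Among the 184 promoters of damped rises with an interaction of -1 or lower the share with a CArG box was 1.09%. MT2A (chr16:56608334-56608583, plus strand) encodes a metallothionein, a small metal-binding protein. Its capitals mark 7 matches to the core of the metal response element, TGCNCNC, which the zinc-sensing factor MTF1 binds. At least 1 match to this short core stood in 56.2% of promoters of tested genes, and as many as 7 in 10 of them (0.0915%). Its share among the 184 promoters of damped rises was 51.1%.

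MT2A: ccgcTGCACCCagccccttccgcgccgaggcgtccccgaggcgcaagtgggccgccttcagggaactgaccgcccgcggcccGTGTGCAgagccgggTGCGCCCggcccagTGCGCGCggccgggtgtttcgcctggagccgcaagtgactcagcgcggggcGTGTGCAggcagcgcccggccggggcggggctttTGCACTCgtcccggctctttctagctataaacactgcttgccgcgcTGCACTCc

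Of the 29 DBIC rises that hemin damped by 3 or more log2 units, 24 had a promoter in the table, and 9 of these (37.5%) held a match to the NF-kB site, against 5.95% of the promoters of tested genes. Among the 184 promoters of damped rises with an interaction of -1 or lower the share was 11.4%. Both sets hold only genes that DBIC raised. Promoters of genes that DBIC raised without a departure were not compared. Whether the share goes with the size of the DBIC rise or with the damping was not tested. Of the 8 other motifs searched, the TEAD site, GGAATG, was in 6 of the 24 and in 9.24% of the 184, against 9.53% of promoters of tested genes. The EGR site was in 0 of the 24 and in 6.52% of the 184, against 7.60%. The metal response element was in 10 of the 24, the antioxidant response element in 3 (against 11.8%), the cAMP response element in 2 (2.69%), the AP-1 site in 2 (4.16%), the core of the sterol element in 2 (2.36%) and the CArG box in 1. The 9 promoters with an NF-kB match are aligned here as 30 bases, starting 10 bases before the first match, with matches in capitals. In the case of TNFAIP3 the window ends inside the second match. The windows lie at chr4:73869304-73869333 (CXCL1, plus strand), chr4:74099254-74099283 (CXCL2, minus strand), chr4:74038749-74038778 (CXCL3, minus strand), chr6:137867182-137867211 (TNFAIP3, plus strand), chr11:102317275-102317304 (BIRC3, plus strand), chr7:22727117-22727146 (IL6, plus strand), chr16:3065294-3065323 (IL32, plus strand), chr1:7940894-7940923 (TNFRSF9, minus strand) and chr2:73293681-73293710 (EGR4, minus strand).

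CXCL1: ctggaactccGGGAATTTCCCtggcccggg
CXCL2: ctggagctccGGGAATTTCCCtggcccggg
CXCL3: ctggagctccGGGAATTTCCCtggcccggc
TNFAIP3: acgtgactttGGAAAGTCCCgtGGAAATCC
BIRC3: tttgggtcatGGAAATCCCCgagtgggttt
IL6: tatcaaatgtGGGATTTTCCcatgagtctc
IL32: cctgtactcaGGGAGTTTCCCcagccagct
TNFRSF9: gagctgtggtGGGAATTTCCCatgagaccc
EGR4: tttccttttcGGGAGTCCCCggcacacatc

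The 3 CXCL genes are neighbours on chromosome 4 and carry the same site. A match is a description of the letters in this window and does not show that a factor bound there.

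Departure from additivity was found for 2376 genes (16.6% of those tested, edgeR's quasi-likelihood test, Benjamini-Hochberg adjusted p under 0.05). For 1462 genes (10.2%) the combination lay below the additive expectation and for 914 (6.4%) above it. Genes above made up 38.5% of the departures, and 55.4% with upper-quartile normalization, under which the median interaction of the tested genes was 0.044 instead of -0.0091. At an absolute interaction of at least 1, 261 genes lay below and 17 above. For comparison, DBIC alone changed 5310 genes (37.2%), Hemin alone 580 (4.06%), DBIC in the presence of hemin 971 (6.8%), and hemin in the presence of DBIC 4559 (31.9%). Of the comparisons set beside the interaction, DBIC against Ctrl and DBIC+Hemin against Hemin share no library with each other. The count of 971 for DBIC with hemin was 612 without DBIC+Hemin replicate 1, 621 without Hemin replicate 1 and 625 without Hemin replicate 3.

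**Figure D1:**
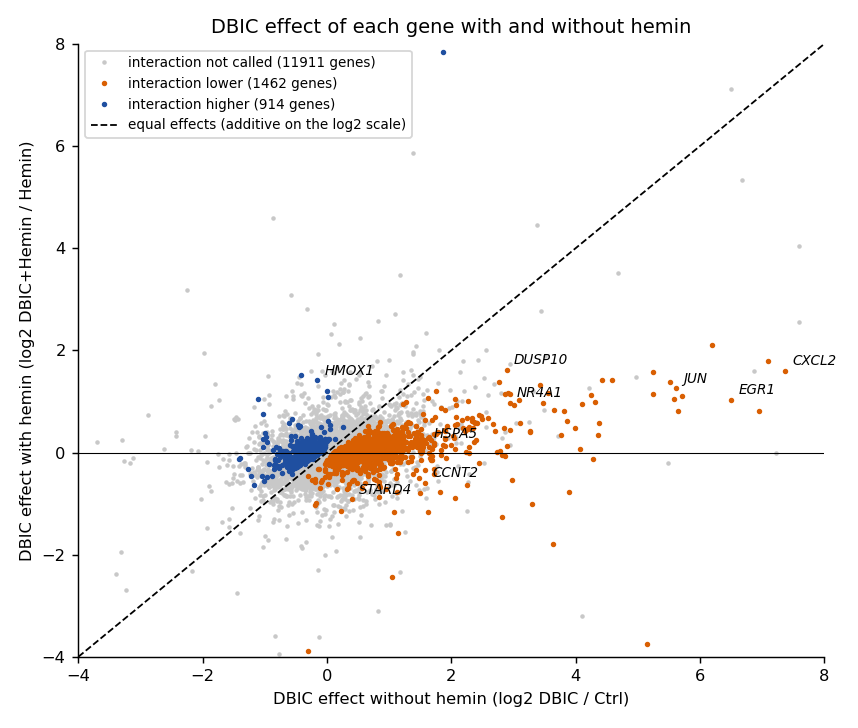
DBIC effect of each tested gene without hemin (horizontal axis, log2 of DBIC over Ctrl) and with hemin (vertical axis, log2 of DBIC+Hemin over Hemin). Points are genes (grey, interaction not called, orange, lower, 1462 genes, blue, higher, 914 genes), the dashed line marks equal effects, and 13 genes lie outside the range of -4 to 8. The orange genes lie below the dashed line, out to CXCL2 at a DBIC effect of 7.37 without hemin.

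Antagonism was the form of nearly every departure. In 1377 genes (58.0% of the 2376) a rise with DBIC was damped, and in 844 (35.5%) a fall with DBIC was damped, the latter 1406 with upper-quartile normalization. A DBIC effect was enlarged in 9 genes, 3 rises and 6 falls. In 20 genes hemin changed the level, DBIC alone did not pass the threshold, and the interaction opposed the hemin effect, and in 2 it added to it. In the remaining 124 genes (50 higher, 74 lower) neither treatment alone passed the threshold. These classes are counts of calls that share the DBIC and Ctrl libraries, so that an error in those libraries moves the DBIC effect and the interaction in opposite directions. In 43 genes DBIC was called in one direction without hemin and in the other with it. On a linear scale, where the expectation is the sum of the separate changes in CPM, the direction was the same in 2374 of the 2376 genes.

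The DBIC effect left in the presence of hemin was measured on libraries that the DBIC effect itself did not use. Among the 30 genes that DBIC raised by 4 log2 units or more, the median DBIC effect was 5.39 without hemin and 1.14 with it. Among the 95 genes raised by 2 to 4, the medians were 2.59 and 0.60, and among the 316 raised by 1 to 2 they were 1.26 and 0.21. At the low end, 1695 genes raised by less than 0.5 had medians of 0.28 and 0.060. The median share of the log2 effect that was kept thus lay between 16.7% and 24.1% at every size of rise. The interaction passed the threshold against the rise in 37.5% of the genes raised by less than 0.5. That share was 63.2% at 0.5 to 1, 62.0% at 1 to 2, 70.5% at 2 to 4 and 70.0% at 4 or more. The gene lists below are set beside all tested genes and not beside genes of equal DBIC rise. Genes that DBIC lowered by 0.5 to 1 (284 genes) kept a median of 40.0% and those lowered by 1 to 2 (56 genes) kept 34.3%, while those lowered by less than 0.5 (2106 genes) kept 20.6%. In 5 genes DBIC lowered the level by 2 or more, with a median kept share of 5.30% in the 3 genes lowered by 2 to 4 and 3.34% in the 2 lowered by more, and the interaction passed the threshold in 0 of these 5.

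The 251 damped rises with an interaction of -1 or lower had a median genomic span of 12.3 kb and 5 exons, against 31.98 kb and 9 exons over all tested genes, and a median Ctrl level of 7.66 CPM against 23.6. Genes of equal Ctrl level or equal DBIC rise were not compared. The 1479 genes that DBIC raised without a departure past the threshold had a median span of 38.8 kb and 11 exons. The 844 damped falls had a median span of 31.6 kb and a median Ctrl level of 117 CPM. Of the 29 rises damped by 3 or more, 51.7% had libraries of a group that spanned over 2-fold, compared with 14.4% of tested genes.

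Immediate early transcription factors were among the largest damped rises. EGR1 stood at 23.8, 30.3 and 28.2 CPM in Ctrl, 2878, 2189 and 2412 with DBIC, 23.9, 26.6 and 27.5 with Hemin and 50.3, 50.6 and 59.3 with both. The combination remained above the Hemin libraries and far below the DBIC libraries, with no overlap in either comparison, and lay 44.3-fold under the additive expectation of 2366 CPM (log2 interaction -5.47, standard error 0.18, edgeR adjusted p = 1.22e-07). EGR2, a related factor, was at 0.397, 0.428 and 0.691 CPM in Ctrl, 82.9, 53.1 and 71.4 with DBIC, 0.531, 0.371 and 0.314 with Hemin and 1.24, 1.49 and 1.53 with both (log2 interaction -5.29, standard error 0.41, edgeR adjusted p = 1.31e-05). The 6 tested members of the list of EGR factors and their NAB corepressors were each lower than additive, against 10.2% of all tested genes, and DBIC raised all 6. Their interactions ran from -5.47 for EGR1 to -0.26 for NAB2, with a median of -3.40 against -0.0091 over the tested genes. NAB1 (-0.73) and NAB2 departed least in a list in which EGR3 was at -2.99 and EGR4, whose DBIC libraries spread over 8.57, 19.7 and 29.4 CPM, at -3.80.

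Of the 8 AP-1 genes 7 were lower than additive and 0 higher, against 10.2% and 6.4% of all tested genes, and DBIC raised 7 of the 8. Their median interaction was -2.92. JUN was at 41.96, 39.1 and 41.6 CPM in Ctrl, 2242, 1720.4 and 2033 with DBIC, 68.9, 68.03 and 65.6 with Hemin and 177, 148 and 159 with both, so that the 4 groups did not overlap. Hemin alone raised JUN (log2 fold change 0.72, edgeR adjusted p = 0.00225), DBIC raised it by 5.61, and with hemin present DBIC raised it by 1.26 (log2 interaction -4.35, standard error 0.13, edgeR adjusted p = 5.01e-08). FOS, its dimer partner, was at 4.09, 2.29 and 5.12 CPM in Ctrl, 214, 123 and 193 with DBIC, 3.49, 2.87 and 4.08 with Hemin and 6.87, 9.89 and 10.2 with both (log2 interaction -4.15, standard error 0.45, edgeR adjusted p = 0.000277). FOSL2 (-1.36, edgeR adjusted p = 0.205) did not pass. FOSB (-3.16), JUNB (-2.82) and ATF3 (-3.01) had larger interactions than JUND (-1.54) and FOSL1 (-0.93). The DBIC libraries of ATF3 spread over 245, 174 and 89.5 CPM.

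The NR4A receptors are orphan nuclear receptors induced early by many stimuli. NR4A1, which encodes Nur77, was at 204, 199 and 208 CPM in Ctrl, 1634, 1551 and 1511 with DBIC, 204, 183 and 213 with Hemin and 399, 387 and 389 with both. Its interaction was smaller than that of EGR1 or JUN, and it kept 33.02% of its log2 rise (log2 interaction -1.97, standard error 0.069, edgeR adjusted p = 5.01e-08). NR4A3 (-3.32) and NR4A2 (-2.29) also lay below additivity. NR4A2 was lowered by Hemin alone (log2 fold change -0.99, edgeR adjusted p = 0.000713), and its combination libraries, at 5.71, 5.47 and 6.13 CPM, lay below the Ctrl libraries, at 7.64, 8.34 and 9.67.

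**Figure D2:**
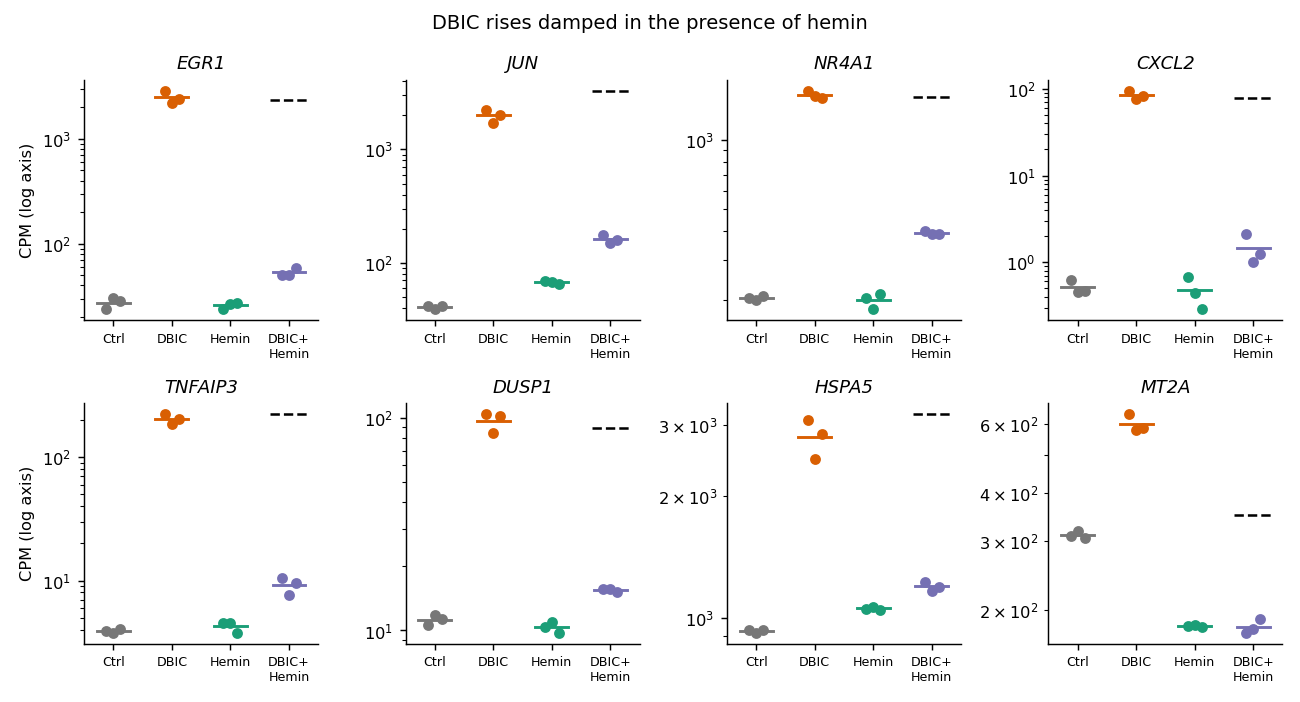
Level of 8 genes in each library (vertical axes, CPM on log axes) for Ctrl, DBIC, Hemin and DBIC+Hemin. Points are the 3 libraries of a group, solid lines their means, and the dashed line the level of the combination expected from additivity on the log2 scale. In each panel the 3 combination libraries lie under the dashed line, and for EGR1 they lie at 50.3, 50.6 and 59.3 CPM against an expected 2366.

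Neutrophil-attracting chemokines included CXCL2, the damped rise with the largest departure among those named by rule. CXCL2 was at 0.6204, 0.453 and 0.461 CPM in Ctrl, 95.5, 77.3 and 82.6 with DBIC, 0.683, 0.445 and 0.288 with Hemin and 2.1, 0.994 and 1.23 with both. The combination thus lay 54.5-fold under the additive expectation (log2 interaction -5.77, standard error 0.50, edgeR adjusted p = 4.51e-05). CXCL8, which encodes interleukin-8, was at 9.03, 8.66 and 9.75 CPM in Ctrl, 713, 598 and 703 with DBIC, 5.44, 6.801 and 6.53 with Hemin and 35.7, 20.3 and 24.7 with both. It kept 33.9% of its log2 rise, and DBIC still raised it by 2.10 log2 units with hemin (edgeR adjusted p = 0.00032, with a log2 interaction of -4.09, standard error 0.28, edgeR adjusted p = 1.28e-05). CXCL3 was at 0.397, 0.403 and 0.563 CPM in Ctrl, 22.7, 21.7 and 21.5 with DBIC, 0.734, 0.321 and 0.575 with Hemin and 1.58, 0.945 and 0.866 with both. CXCL3 (-4.53), CXCL1 (-3.24) and CCL2 (-1.82) were lower than additive as well. Of the 6 tested chemokines 5 departed, all 5 lower, against 10.2% lower over all tested genes. CCL20 (-3.50, edgeR adjusted p = 0.161) did not pass.

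Cytokines of the IL6 and IL1 families departed in 6 of 8 tested genes, 6 lower and 0 higher, against 10.2% and 6.4% of all tested genes. IL6 itself was low throughout, at 0.273, 0.277 and 0.281 CPM in Ctrl, 7.36, 6.81 and 5.93 with DBIC, 0.152, 0.4699 and 0.261 with Hemin and 0.815, 0.771 and 0.798 with both (log2 interaction -3.16, edgeR adjusted p = 0.000316). LIF, which signals through the same co-receptor, was at 45.1, 48.97 and 52.2 CPM in Ctrl, 238, 211 and 218 with DBIC, 65.4, 67.2 and 70.8 with Hemin and 93.5, 93.1 and 96.7 with both. Its levels were raised by each treatment alone and departed by -1.71 (standard error 0.083, edgeR adjusted p = 3.3e-07). IL11 was a member that kept 50.4% of its rise, at 207, 178 and 189 CPM with DBIC and 63.8, 58.96 and 57.5 with both against 22.3, 23.1 and 23.3 with Hemin (log2 interaction -1.37, edgeR adjusted p = 1.99e-06).

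Among NF-kB subunits, their inhibitors and close targets, 12 of 16 tested genes were lower than additive and 0 higher, against 10.2% and 6.4% of all tested genes. The median interaction of this list was -1.21, and DBIC raised 13 of the 16. TNFAIP3, the ubiquitin editor A20 that shuts NF-kB signalling off, was at 3.896, 3.78 and 4.07 CPM in Ctrl, 223, 185 and 205 with DBIC, 4.504, 4.55 and 3.76 with Hemin and 10.4, 7.68 and 9.46 with both (log2 interaction -4.60, standard error 0.17, edgeR adjusted p = 5.01e-08). BIRC3, an inhibitor of apoptosis, departed by -3.67 and NFKBIA, the inhibitor of NF-kB alpha, by -2.07. NFKBIA was at 19.4, 21.3 and 16.8 CPM in Ctrl, 140.2, 190.0 and 133 with DBIC, 13.5, 13.4 and 18.1 with Hemin and 27.8, 18.8 and 39.3 with both. The inducible subunits RELB (-1.37) and NFKB2 (-1.16) were damped, whereas the constitutive subunit RELA was at -0.048 (edgeR adjusted p = 0.805). Outside the list, the cytokine gene IL32 was at 2.37, 2.19 and 1.84 CPM with DBIC and 0.469, 0.273 and 0.319 with both (log2 interaction -4.03), and the T-cell co-stimulator gene TNFRSF9 at 4.48, 4.85 and 4.94 with DBIC and 0.296, 0.348 and 0.342 with both (-4.83). The call of TNFRSF9 was lost without Hemin replicate 2. Both were chosen after their values were seen, because of the NF-kB match in their promoters.

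The 10 dual-specificity phosphatases, which switch off MAP kinases, were each lower than additive (10 of 10, median interaction -1.51), while over all tested genes 10.2% were lower and 6.4% higher. All 10 were raised by DBIC. DUSP1 was at 10.6, 11.8 and 11.3 CPM in Ctrl, 104, 84.4 and 102 with DBIC, 10.3, 11.01 and 9.75 with Hemin and 15.7, 15.7 and 15.2 with both (log2 interaction -2.52, standard error 0.11, edgeR adjusted p = 1.64e-07). DUSP10, a phosphatase for stress kinases, kept 56.2% of its rise, at 120.0, 106 and 103 CPM with DBIC and 42.7, 34.1 and 43.1 with both. DUSP6, a phosphatase for ERK, kept none that could be detected, as the DBIC effect with hemin was -0.41 (edgeR adjusted p = 0.273). Among 10 readouts of ERK output (median interaction -0.14), 3 were lower, SPRY4 (-0.88), SPRY2 (-0.61) and SPRED3 (-0.33), against 10.2% of all tested genes. The other 7, the ETV factors among them, did not pass. The call of SPRED3 was lost without Hemin replicate 1.

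ZFP36, which promotes decay of mRNAs with AU-rich elements, was at 12.2, 11.1 and 11.6 CPM in Ctrl, 169, 361 and 149 with DBIC, 10.02, 9.2 and 10.2 with Hemin and 7.58, 9.99 and 9.303 with both. A single DBIC library stood far above the others, and with hemin the DBIC effect was -0.13 (edgeR adjusted p = 0.872, with a log2 interaction of -4.42, standard error 0.45, edgeR adjusted p = 0.000193). NUAK2, a kinase of the AMPK family, was at 7.94, 7.98 and 6.83 CPM in Ctrl, 136, 119.7 and 127 with DBIC, 9.13, 9.84 and 9.28 with Hemin and 9.83, 8.87 and 10.7 with both. Its rise was not detectable with hemin (log2 fold change 0.06, edgeR adjusted p = 0.759, with a log2 interaction of -4.01, standard error 0.12, edgeR adjusted p = 2.72e-08). Of 10 tested KLF factors 6 were lower than additive, led by KLF10 (-1.74), and 1, KLF13, was higher (0.40), against 10.2% and 6.4% of all tested genes. IER2 (-2.71, edgeR adjusted p = 0.327) and MYC (0.42, edgeR adjusted p = 0.837) had libraries of a group that differed widely, such as 19.98, 75.9 and 209 CPM for IER2 in Ctrl, and did not pass.

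In the BCL2 family list, 3 of 15 tested genes were lower than additive, 1 higher and 11 not past the threshold (median interaction -0.070), against 10.2% lower and 6.4% higher over all tested genes. MCL1, an anti-apoptotic BCL2 protein with a short half-life, was at 263, 287 and 257 CPM in Ctrl, 944, 783 and 930.3 with DBIC, 236, 245 and 242 with Hemin and 298, 268 and 254 with both (log2 interaction -1.54, standard error 0.11, edgeR adjusted p = 7.88e-06). PMAIP1, which encodes the pro-apoptotic NOXA, departed by -1.23. BBC3 was at 16.1, 15.9 and 16.9 CPM in Ctrl, 48.4, 39.5 and 18.5 with DBIC, 16.7, 7.94 and 16.5 with Hemin and 8.103, 7.805 and 8.003 with both, and its call (-1.90) was lost in several of the fits without 1 library. In the p53 and GADD45 list 4 of 14 were lower, among them the growth arrest genes GADD45A (-2.16) and GADD45B (-2.15), 1 was higher and 9 did not pass (median 0.032).

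Rises of integrated stress response genes were damped in part. DDIT3, which encodes CHOP, was at 13.1, 9.37 and 15.8 CPM in Ctrl, 164, 85.8 and 119 with DBIC, 18.5, 18.4 and 18.2 with Hemin and 18.2, 26.2 and 28.02 with both. Each DBIC library lay above each combination library, and the DBIC effect with hemin was 0.40 (edgeR adjusted p = 0.466, with a log2 interaction of -2.87, standard error 0.38, edgeR adjusted p = 0.00081). ATF4 was at 457, 469.5 and 461 CPM in Ctrl, 765, 725 and 721 with DBIC, 503, 521 and 507 with Hemin and 623, 597 and 634 with both (log2 interaction -0.40, standard error 0.043, edgeR adjusted p = 0.00011). ATF4 was raised by each treatment alone, and DBIC still raised it with hemin by 0.28 (edgeR adjusted p = 0.000333).

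In the list of ATF4 and CHOP targets, 14 of 25 tested genes were lower than additive and 1, ERO1A (0.27), higher. Over all tested genes 10.2% were lower and 6.4% higher, and the call of ERO1A was lost in fits without 1 library. SESN2, a stress-induced brake on mTORC1, was at 40.4, 44.4 and 44.5 CPM in Ctrl, 217, 199 and 199 with DBIC, 70.02, 76.96 and 71.4 with Hemin and 104, 102 and 93.5 with both (log2 interaction -1.80, edgeR adjusted p = 1.92e-07). PPP1R15A (GADD34), which brings a phosphatase to eIF2alpha, was at 149.5, 162 and 156 CPM in Ctrl, 809, 741 and 734 with DBIC, 226, 238 and 230.2 with Hemin and 317, 310.1 and 353 with both (-1.79, edgeR adjusted p = 1.22e-07). Both were raised by hemin alone and by DBIC alone, and their combination lay between the single treatments. Other members of the same list did not pass, among them TRIB3 (-0.71, edgeR adjusted p = 0.285), GDF15 (-0.53, edgeR adjusted p = 0.0542). The asparagine synthetase gene ASNS, of another list, did not pass either (-0.12, edgeR adjusted p = 0.161). ASNS was at 151, 152 and 155 CPM with DBIC, 155, 159 and 154 with Hemin and 186, 180.4 and 167 with both, against 126, 122 and 122 in Ctrl, so the combination libraries were the highest. Against 16.6% of all tested genes, 1 of 13 amino acid transporters was lower and 0 higher, and of 20 aminoacyl-tRNA synthetases 1 was lower and 2 higher. In the serine, one-carbon and asparagine list 2 of 12 were lower and 4 higher.

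The eIF2 kinases did not move together. EIF2AK3, which encodes PERK, was at 19.6, 18.1 and 18.8 CPM in Ctrl, 42.3, 40.2 and 40.8 with DBIC, 15.5, 16.4 and 16.5 with Hemin and 22.3, 19.3 and 20.3 with both (log2 interaction -0.77, standard error 0.085, edgeR adjusted p = 0.000127). EIF2AK4 (GCN2) was slightly higher than additive (0.24), and EIF2AK1 (the heme-regulated kinase HRI, 0.14) and EIF2AK2 (PKR, 0.17) did not pass. EIF2S1, which encodes eIF2alpha, was at -0.052 (edgeR adjusted p = 0.649).

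Chaperones of the endoplasmic reticulum were lower than additive in 10 of 20 tested genes and higher in 0, against 10.2% and 6.4% of all tested genes. HSPA5 (BiP) was at 929.8, 917 and 932 CPM in Ctrl, 3095, 2468 and 2845 with DBIC, 1053, 1064 and 1044 with Hemin and 1224, 1167 and 1193 with both (log2 interaction -1.42, standard error 0.088, edgeR adjusted p = 2.19e-06). HERPUD1 (-1.80) and DNAJB9 (-1.70), which act in degradation and folding of endoplasmic reticulum proteins, departed further, while the disulfide isomerases PDIA3 (0.031), PDIA4 (-0.072) and PDIA6 (0.03) did not pass. Of 20 tested heat shock genes, DNAJB1 was lower and HSP90AA1 (0.31) and HSP90AB1 (0.22) were higher, a share near the 16.6% of all tested genes. CEBPB (-1.45), a leucine zipper partner of CHOP, was among 4 of 5 tested CEBP factors below additivity, against 10.2% of all tested genes.

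Zinc-responsive genes departed in a different arrangement, with a fall under hemin in 3 of 4, against 370 of all 14287 tested genes. MT2A was at 309, 319.8 and 306 CPM in Ctrl, 634, 578 and 587 with DBIC, 182, 184 and 181 with Hemin and 175, 179 and 190.1 with both. DBIC raised MT2A by 0.94 and Hemin lowered it (log2 fold change -0.77, edgeR adjusted p = 3.81e-06), and the combination stood at the Hemin level, with a DBIC effect of -0.0072 (edgeR adjusted p = 0.952, with a log2 interaction of -0.95, standard error 0.056, edgeR adjusted p = 1.16e-06). The zinc exporter gene SLC30A1 was at 33.2, 29.9 and 32.6 CPM in Ctrl, 65.3, 58.3 and 67.4 with DBIC, 12.9, 16.2 and 14.1 with Hemin and 15.7, 15.4 and 16.1 with both (log2 interaction -0.87, edgeR adjusted p = 0.000452). MT1X (-0.91) and the regulator MTF1 (-0.66) completed a list in which 4 of 4 tested genes were lower than additive, against 10.2% of all tested genes. MTF1 was not lowered by Hemin alone past the threshold (0.069, edgeR adjusted p = 0.389).

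Clock genes were lower than additive in 7 of 15 tested and higher in 0, against 10.2% and 6.4% of all tested genes. NR1D1, which encodes the heme-binding repressor REV-ERB alpha, was at 38.4, 41.1 and 38.5 CPM in Ctrl, 116, 98.6 and 100.1 with DBIC, 43.6, 38.6 and 40.7 with Hemin and 48.5, 44.3 and 51.1 with both (log2 interaction -1.19, edgeR adjusted p = 2.33e-05). BHLHE40 (-1.86), NFIL3 (-1.62) and PER1 (-1.06) departed likewise, and the core activators ARNTL (-0.40) and CLOCK (-0.28) did not pass. On chromosome 19, whose clusters of zinc finger genes mainly encode transcriptional repressors, 72 of 228 tested zinc finger genes were lower and 1 higher (median interaction -0.42), and 107 of the 228 were raised by DBIC. Over all 14287 tested genes 10.2% were lower and 6.4% higher, and 2859 were raised by DBIC. In this list 60 of 228 genes had libraries of a group that spanned over 2-fold.

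Damped falls were smaller than damped rises. Their median interaction was 0.26, against -0.49 for damped rises, and 9 of the 844 reached 1. COL4A1, a chain of basement membrane collagen, was at 177, 185 and 185 CPM in Ctrl, 112, 112 and 110.0 with DBIC, 168, 167 and 167 with Hemin and 163, 177 and 173 with both. IGF2R, the receptor that carries lysosomal enzymes, was at 224, 221 and 220.4 CPM in Ctrl, 133, 144 and 139 with DBIC, 219, 219 and 225 with Hemin and 225, 226 and 224 with both. In both genes the DBIC libraries lay below the other 9, and the combination returned to the Hemin level (log2 interaction 0.75, edgeR adjusted p = 1.52e-06 for COL4A1, and 0.70, edgeR adjusted p = 1.06e-06 for IGF2R). COL4A2 (0.61) and the receptor phosphatase PTPRF (0.62) followed. These 4 were chosen after their values were seen.

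The damped falls with the largest departures included less abundant genes. PAK6, a kinase downstream of CDC42, was at 3.65, 3.27 and 3.61 CPM in Ctrl, 1.52, 1.08 and 1.37 with DBIC, 4.93, 4.06 and 3.32 with Hemin and 4.25, 3.98 and 3.15 with both (log2 interaction 1.29, standard error 0.25, edgeR adjusted p = 0.00482). DGAT2, which makes triglycerides, was at 3.52, 3.17 and 2.28 CPM in Ctrl, 1.39, 1.53 and 1.61 with DBIC, 3.26, 2.65 and 3.14 with Hemin and 3.19, 3.93 and 3.99 with both (log2 interaction 1.28, edgeR adjusted p = 0.00401). RPS3A (1.19) and OTUB2 (0.91) were also higher than additive. RPS3A encodes a ribosomal protein with many processed copies in the genome, and its Ctrl libraries ranged over 242, 351 and 373 CPM. The list of 83 ribosomal protein genes had a median of 0.050, with 6 higher (7.23%) and 2 lower (2.41%). Over all tested genes 6.4% were higher, a share close to that of the list, and 10.2% lower.

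In the DNA replication and mitosis list 14 of 26 tested genes were higher and 1, CDC6 (-0.35), lower, with a median interaction of 0.15 and 14 of the 26 lowered by DBIC. Over all 14287 tested genes 6.4% were higher and 10.2% lower, and 2451 were lowered by DBIC. PLK1 (0.35), TOP2A (0.33) and MCM2 (0.29) were the largest of them. Of 47 tested proteasome genes 9 were higher and 0 lower (median 0.13), led by PSMB5 (0.52), whose call was lost with limma voom and in fits without 1 library. In the respiratory chain list of complex II and heme proteins, 5 of 18 were higher and 0 lower. SDHA, a subunit of succinate dehydrogenase, was at 156, 166 and 159 CPM in Ctrl, 146, 147 and 145 with DBIC, 165, 152 and 160.1 with Hemin and 168, 169.7 and 168 with both (log2 interaction 0.22, edgeR adjusted p = 0.00772), and SDHC departed by 0.26.

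In 94 genes the combination lay beyond both single treatments, 63 below and 31 above, each called against DBIC and against Hemin in the direction of the interaction. The 3 combination libraries were outside the range of the other 9 libraries in 76 of the 94, which the calls that chose these genes nearly fix, and in 4.11% of all tested genes (264 above, 323 below). The count of 94 was 48, 57 and 58 without Hemin replicate 1, 2 and 3. Of the 94, 71 were also called in each of the 12 fits without 1 library and had a mean of at least 2 CPM.

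Genes of the cholesterol list were among the combinations below both treatments. STARD4, a carrier of cholesterol between membranes, was at 17.1, 16.6 and 16.6 CPM in Ctrl, 23.3, 22.6 and 20.3 with DBIC, 23.5, 29.2 and 23.1 with Hemin and 13.8, 13.1 and 13.2 with both. Each treatment alone raised STARD4, and the combination was below each Ctrl library (log2 interaction -1.31, standard error 0.12, edgeR adjusted p = 3.96e-05). IDI1, an isomerase of the mevalonate pathway, was at 44.6, 41.9 and 40.7 CPM in Ctrl, 47.4, 45.9 and 48.1 with DBIC, 48.99, 49.2 and 47.1 with Hemin and 37.7, 35.6 and 37.4 with both (-0.54, edgeR adjusted p = 0.000169). In IDI1 the 3 combination libraries lay below the other 9.

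Over the list, 9 of 26 tested cholesterol and SREBP genes were lower than additive, 1 higher and 16 not past the threshold (10.2% and 6.4% over all tested genes were lower and higher), and the median was -0.054 (0.0095 without Hemin replicate 1). DBIC in the presence of hemin lowered 12 of the 26 and raised 0, whereas without hemin DBIC lowered 12 and raised 4. Of all 14287 tested genes, DBIC lowered 441 and raised 530 with hemin, and lowered 2451 and raised 2859 without it. SQLE, the squalene epoxidase gene, was lowered by DBIC alone (-0.20), raised by Hemin alone (0.19) and lowered further by DBIC with hemin (-0.51), at 43.9, 42.5 and 45.4 CPM in Ctrl, 36.6, 39.5 and 38.8 with DBIC, 51.04, 50.2 and 48.9 with Hemin and 34.9, 34.1 and 36.3 with both. SREBF1, which encodes the transcription factor SREBP-1, showed the same enlargement to a small degree (-0.31 without and -0.46 with hemin, log2 interaction -0.15), and its call was lost with upper-quartile normalization. The sterol oxidase gene MSMO1 (-0.82) was called in each fit without 1 library, and INSIG1 (-1.04) and HMGCS1 (-0.97) were not. MYLIP, which encodes a ubiquitin ligase, was lower as well, at 18.5, 17.7 and 18.7 CPM in Ctrl, 21.5, 18.8 and 21.2 with DBIC, 15.7, 15.1 and 15.9 with Hemin and 9.73, 9.72 and 9.03 with both (log2 interaction -0.88, standard error 0.09, edgeR adjusted p = 7.25e-05).

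Of the 13 tested YAP and SRF targets 4 were lower than additive, 2 higher and 7 not past the threshold (median interaction -0.12), against 10.2% lower and 6.4% higher over all tested genes. CTGF (also CCN2), a matricellular protein, was at 209.5, 217 and 210.3 CPM in Ctrl, 408, 348 and 388 with DBIC, 201, 207 and 205 with Hemin and 145, 162 and 144 with both (log2 interaction -1.29, standard error 0.082, edgeR adjusted p = 2.01e-06). DBIC therefore raised CTGF without hemin (0.84) and lowered it with hemin (-0.44, edgeR adjusted p = 0.00105). ANKRD1, a nuclear ankyrin repeat protein, was at 3.65, 3.12 and 3.22 CPM in Ctrl, 3.73, 4.13 and 3.83 with DBIC, 4.504, 4.97 and 4.81 with Hemin and 1.88, 2.56 and 2.01 with both (-1.37, edgeR adjusted p = 0.000354). AMOTL2 (-1.02), a feedback inhibitor of YAP, also changed direction, from 0.75 without hemin to -0.27 with it. CYR61 (CCN1) rose with DBIC by 1.70 and was at 0.067 with hemin (edgeR adjusted p = 0.361, with a log2 interaction of -1.63). The 2 higher genes of the list were ACTB (0.22) and MYL9 (0.40), and the call of MYL9 was lost in fits without 1 library.

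Other genes in this class belonged to separate pathways. HES1, a repressor downstream of Notch, was at 27.1, 28.7 and 28.3 CPM in Ctrl, 58.8, 50.1 and 50.7 with DBIC, 28.6, 28.4 and 29.4 with Hemin and 24.1, 23.1 and 24.1 with both (-1.20, edgeR adjusted p = 4.52e-06). ATF5, a stress-response factor related to ATF4, was at 57.6, 56.3 and 58.5 CPM in Ctrl, 59.1, 58.8 and 56.1 with DBIC, 55.3, 60.5 and 54.3 with Hemin and 35.4, 39.9 and 36.3 with both (-0.62, edgeR adjusted p = 0.000264). Neither treatment alone moved ATF5 past the threshold, and the 3 combination libraries lay below the other 9. ADM, the vasodilator peptide adrenomedullin, was at 29.2, 28.2 and 28.8 CPM in Ctrl, 37.6, 32.8 and 36.9 with DBIC, 31.4, 35.2 and 30.9 with Hemin and 17.2, 23.1 and 19.4 with both (-1.03, edgeR adjusted p = 0.00047), and the stress kinase gene PLK2 departed by -0.78. CCNT2, a cyclin of the elongation factor P-TEFb, was at 9.95, 10.7 and 10.03 CPM in Ctrl, 31.4, 30.9 and 29.4 with DBIC, 20.02, 18.99 and 19.2 with Hemin and 16.97, 11.9 and 9.83 with both. Each treatment alone raised it, and the combination libraries, which spread more than the others, lay below each library of either single treatment (log2 interaction -2.17, standard error 0.21, edgeR adjusted p = 5.98e-05), and the keratin-associated gene KRTAP2-3 had the same arrangement (-1.50).

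Synergy above both treatments was led by HMOX1, the heme oxygenase gene. Its levels were 7.99, 8.94 and 9.19 CPM in Ctrl, 8.73, 7.26 and 7.47 with DBIC, 62.2, 65.5 and 61.9 with Hemin and 188, 146 and 172 with both. The combination was 2.97-fold the additive expectation of 56.8 CPM (log2 interaction 1.57, standard error 0.14, edgeR adjusted p = 2.23e-05). DBIC alone did not change HMOX1 past the threshold (-0.16, edgeR adjusted p = 0.262), while with hemin it raised it by 1.41 (edgeR adjusted p = 1.05e-05). The repressor gene BACH1, whose protein heme releases from HMOX1, was lower than additive (-0.90) as a damped DBIC rise. Its mean level was 33.02 CPM in Ctrl, 70.1 with DBIC, 37.4 with Hemin and 42.6 with both. DBIC raised BACH1 by 1.09 without hemin, and with hemin the DBIC effect was 0.19 (edgeR adjusted p = 0.443). The mean level of BACH1 in the combination was therefore not below that of Hemin or Ctrl.

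Of 30 tested genes of the NRF2 and BACH1 list, 5 were higher and 3 lower, against 6.4% and 10.2% of all tested genes. NQO1 (0.24) and GSR (0.32) were DBIC falls that hemin damped, at -0.18 and -0.27 without hemin. SRXN1 departed by 0.21, and neither single treatment changed it past the threshold. SRXN1, which reduces oxidized peroxiredoxins, was at 117, 114 and 110.4 CPM in Ctrl, 109.5, 111 and 113 with DBIC, 124, 121 and 119 with Hemin and 141, 138 and 134 with both, so its combination libraries lay above the other 9. MAFG, a partner of NRF2 and BACH1, had the largest fitted interaction of the list (2.09) but did not pass (edgeR adjusted p = 0.118). Its libraries were at 113, 30.5 and 116 CPM in Ctrl, 31.2, 31.5 and 33.1 with DBIC, 25.6, 105 and 104 with Hemin and 124, 128 and 119 with both, with the 3 combination libraries above the other 9, and its call was gained without Ctrl replicate 2. GCLM, a subunit of the enzyme that starts glutathione synthesis, was raised by Hemin alone (0.62) and had an interaction of 0.25 (edgeR adjusted p = 0.201). UPRT, a uracil phosphoribosyltransferase homologue, was at 3.598, 4.53 and 3.15 CPM in Ctrl, 3.55, 4.87 and 2.95 with DBIC, 3.34, 2.84 and 3.03 with Hemin and 6.82, 5.69 and 7.14 with both (log2 interaction 1.08, standard error 0.27, edgeR adjusted p = 0.0179). The cytoskeletal gene ACTB was at 4835, 4894 and 4798 CPM in Ctrl, 4915, 5123 and 4872 with DBIC, 5445, 5346 and 5261 with Hemin and 6367, 6442 and 6355 with both, a departure of 0.22 (standard error 0.033, edgeR adjusted p = 0.00106).

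Enlarged DBIC effects were few. ALAS1, whose product starts the heme pathway, was at 123, 125 and 127 CPM in Ctrl, 151, 152 and 148 with DBIC, 53.9, 52.6 and 52.9 with Hemin and 77.7, 71.5 and 76.6 with both. Hemin lowered it by a log2 fold change of -1.24, and DBIC raised it by 0.26 without hemin and 0.50 with it (log2 interaction 0.24, standard error 0.049, edgeR adjusted p = 0.00656). On the linear scale the combination was -2.92 CPM from the sum of the separate changes, so its synergy holds for ratios and not for absolute differences. Of the 11 tested heme synthesis genes 5 were higher and 0 lower, against 6.4% and 10.2% of all tested genes. The other 4, UROS (0.24), UROD (0.25), FECH (0.50) and SUCLG1 (0.24), were DBIC falls that hemin damped, and the calls of UROS, FECH and SUCLG1 were lost in fits without 1 library. Among enlarged falls, the nuclear receptor gene NR2F2 was at 157, 163 and 162 CPM in Ctrl, 142, 136 and 129.6 with DBIC, 160.3, 168 and 160.0 with Hemin and 109, 109.7 and 115 with both (log2 interaction -0.30, edgeR adjusted p = 0.00297), and the kinase gene NUAK1 departed by -0.38. NR2F2 and NUAK1, like PLK2, CD44 and CXXC5, were chosen after their values were seen.

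Where neither treatment alone passed the threshold, 124 genes departed, and the count was 77, 82 and 78 without Hemin replicate 1, 2 and 3. Besides UPRT and MYLIP, the rule named NLGN1 (1.01), a synaptic adhesion gene, the zinc finger gene ZNF682 (-0.98) and the developmental factor OSR2 (-0.97). OSR2 was at 9.06, 8.36 and 6.55 CPM in Ctrl, 11.7, 9.15 and 9.72 with DBIC, 8.32, 7.91 and 8.6 with Hemin and 5.09, 4.77 and 6.32 with both, with the combination below the other 9 libraries (edgeR adjusted p = 0.00726).

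The interaction could oppose the hemin effect as well. Of the 580 genes called for Hemin against Ctrl, 169 had an interaction against the hemin effect, 64 one along it, and 347 none past the threshold. Hemin and DBIC alone moved 238 genes in the same direction, and in 145 of these the interaction opposed both effects. Those 145 are also counted above among the damped DBIC rises and falls. The hemin effect and the interaction share the Hemin and Ctrl libraries with opposite signs, so an error in those libraries alone adds opposed calls, and these counts are a description. The count of 580 varied with single libraries, at 364, 341 and 292 without Ctrl replicate 1, 2 and 3, and 373, 272 and 338 without Hemin replicate 1, 2 and 3. PTX3, the soluble pattern recognition protein pentraxin 3, was at 9.58, 9.12 and 8.83 CPM in Ctrl, 69.5, 57.5 and 67.6 with DBIC, 13.8, 12.8 and 14.04 with Hemin and 13.2, 14.3 and 11.9 with both. Each treatment raised PTX3 and the combination stayed at the Hemin level (log2 interaction -2.86, standard error 0.12, edgeR adjusted p = 1.33e-07), as did CCDC144NL (-2.65). In the presence of DBIC, hemin lowered both genes (log2 fold changes -2.30 and -1.93), so the hemin effect changed direction.

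In some genes the interaction opposed a fall with hemin. ID3, an inhibitor of basic helix-loop-helix factors, was at 19.1, 19.98 and 19.3 CPM in Ctrl, 14.5, 12.3 and 12.6 with DBIC, 4.45, 3.36 and 3.74 with Hemin and 3.805, 4.95 and 3.94 with both (log2 interaction 0.70, edgeR adjusted p = 0.017). CXXC5, a zinc finger inhibitor of Wnt signalling, was lowered by DBIC (-0.55) and by Hemin (-0.80), and the combination was at 22.9, 22.9 and 21.2 CPM against 21.8, 22.7 and 20.7 with Hemin (0.59). CD44, the hyaluronan receptor, was lowered by Hemin alone and was at 689.7, 715 and 700.2 CPM in Ctrl, 653, 687 and 657 with DBIC, 623, 633 and 615 with Hemin and 715, 731 and 759.9 with both. Its 3 combination libraries lay above the other 9, the nearest by a narrow margin (log2 interaction 0.31, edgeR adjusted p = 0.0004). Of the 20 genes in which the interaction opposed a hemin effect and DBIC alone was not called, 15 had a higher and 5 a lower interaction, and the count was 12 without Ctrl replicate 3, 13 without DBIC replicate 1, 12 without DBIC+Hemin replicate 1 and 11 without Hemin replicate 2.

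TMED7-TICAM2, a read-through transcript of neighbouring genes, was called with an interaction along DBIC and against Hemin. It was at 1.34, 2.12 and 1.64 CPM in Ctrl, 6.08, 4.13 and 8.297 with DBIC, 0, 0 and 0.0261 with Hemin and 4.25, 1.22 and 2.46 with both. Because it shares exons with both genes, the assignment of reads to it is uncertain, its call was lost with limma voom, its fitted interaction of 5.98 is no bound, and no fold is given against the near-zero Hemin libraries.

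Beside the 16.6% of all tested genes that departed, 0 of 12 MHC class I genes did, of 16 autophagy receptors and LC3 genes 1 was higher, and of 11 iron genes 1, ACO1 (0.36), was higher, a call that was lost in fits without 1 library. OMA1, the stress-activated mitochondrial protease, was at 13.5, 13.2 and 13.6 CPM in Ctrl, 10.99, 12.7 and 11.6 with DBIC, 13.99, 16.1 and 12.8 with Hemin and 14.4, 13.8 and 12.5 with both (log2 interaction 0.11, standard error 0.13, edgeR adjusted p = 0.633). Its substrate OPA1 was at 0.11 (edgeR adjusted p = 0.289). GSDMC, which encodes gasdermin C, and GZMB were too low to be tested, at no more than 0.148 and 0.198 CPM in any library. Among the 12 tested genes of the gasdermin and caspase list, 1 was lower and TNFRSF21, which encodes death receptor 6, was higher (0.52), close to the share over all tested genes. The glycolytic enzyme gene HK2 was lower than additive (-0.47, edgeR adjusted p = 0.000274), while BNIP3L, a mitophagy receptor gene, was higher (0.21, edgeR adjusted p = 0.0242) and lost its call in fits without 1 library.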

How the data were processed

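RNA-seq of total RNA from 12 A375 samples was used. The authors trimmed reads with Trim Galore and counted them with Subread featureCounts on hg38, per the labels, which give no versions. The deposited table holds raw counts per gene, which were tested, and TPM and FPKM values made by the authors, which were not used. Totals of 37951275 to 44358912 counts gave a median standard error of 0.124 for the interaction. In edgeR 4.0.16 (R 4.3.3), genes were filtered with filterByExpr, scaled with TMM and fitted by the robust quasi-likelihood model over the 4 groups, with 8 residual degrees of freedom, and p-values were adjusted by Benjamini-Hochberg over all 14287 genes. Standard errors were obtained by dividing each fitted log2 change by the square root of its F statistic. The procedure was tested on simulated data, in which 54% of 100 interactions of size 1 and 82% of 100 of size 2 were recovered.

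A departure was classed by the calls of DBIC and Hemin alone. Beyond both meant a call against DBIC and against Hemin in the direction of the interaction. Named by rule were genes of at least 2 CPM called in all 12 fits without 1 library, namely the 10 most damped rises, the 5 most damped falls, the 10 largest departures beyond both, and the 5 largest with neither treatment called and with an opposed hemin effect, together with list members and genes that the study follows. Spans and exons are from GENCODE 29 and sequences from RefSeq. Alternatives were other scalings, filters, tools (limma 3.58.1 voom, DESeq2 1.42.0), thresholds, a replicate block, the linear scale and leaving out each library. Members and lists were chosen with earlier results of these data known. Some items that the rule or the lists name are not reported here.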

Additional observations from a re-analysis of the deposited data

Results flagged for a closer look

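The following genes were singled out because the DBIC effect without hemin and the DBIC effect with hemin differed by the test of the difference itself (the interaction term, edgeR adjusted p under 0.05). Values are log2 interactions, that is the DBIC effect with hemin minus the DBIC effect without it. With 3 samples a group, no single sample was tested for standing apart from its group.

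Among rises with DBIC that were smaller with hemin, the chemokine genes CXCL2, CXCL3 and CXCL8 were at -5.77, -4.53 and -4.09. The immediate early genes EGR1, EGR2, JUN and FOS were at -5.47, -5.29, -4.35 and -4.15. TNFAIP3 was at -4.60, ZFP36 at -4.42 and NUAK2 at -4.01. Among falls with DBIC that were smaller with hemin, PAK6 was at 1.29, DGAT2 at 1.28, RPS3A at 1.19 and OTUB2 at 0.91.

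Among genes whose combination lay below both single treatments, CCNT2 was at -2.17, KRTAP2-3 at -1.50, ANKRD1 at -1.37, STARD4 at -1.31, CTGF at -1.29, HES1 at -1.20, ADM at -1.03 and AMOTL2 at -1.02. HMOX1 (1.57) and UPRT (1.08) lay above both. Where neither single treatment passed the threshold, NLGN1 was at 1.01, ZNF682 at -0.98, OSR2 at -0.97 and MYLIP at -0.88. Where the interaction opposed the hemin effect, TMED7-TICAM2, whose Hemin libraries were at or near 0, was at 5.98, PTX3 at -2.86 and CCDC144NL at -2.65.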

How the results depend on the processing

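The interaction count of 2376 genes was 2614 with DESeq2, 2413 with RLE size factors, 2342 with library size only, 2700 with upper-quartile normalization, 2347 with limma voom, 2205 without a filter on low counts and 2335 without genes whose libraries of a group spanned over 2-fold, an alternative chosen after seeing the data. Genes above additivity made up 42.2% with DESeq2, 41.6% with RLE and 55.4% with upper-quartile normalization, under which damped falls numbered 1406. DESeq2 gave 31 genes in which the interaction opposed a hemin effect and DBIC was not called. The labels give the samples of each group the numbers 1 to 3, but nothing in them pairs the samples, and same-numbered samples deviated with correlations from -0.046 to 0.081 over 18 pairs, with 8 of 12 samples closest to their own number. With the replicate number as a block, 2078 genes departed, 13 of them with an opposed hemin effect and DBIC not called and 82 with neither treatment called.

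At an absolute log2 change of at least 1, the counts were 278 for the interaction, 502 for DBIC, 16 for Hemin, 46 for DBIC with hemin, 323 for hemin with DBIC and 82 for the combination against Ctrl, with 251 damped rises, 9 damped falls, 2 enlarged effects, 1 opposed hemin effect, 15 with neither treatment called and 13 beyond both. At adjusted p 0.01 they were 1280 for the interaction, 241 for Hemin, 426 for DBIC with hemin, 2918 for hemin with DBIC and 918 for the combination against Ctrl, with 869 damped rises, 380 damped falls, 7 enlarged effects, 8 opposed hemin effects and 16 with neither called.

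Without 1 library in turn, the counts ranged from 1952 to 2313 for the interaction, 4519 to 5416 for DBIC, 272 to 623 for Hemin, 612 to 934 for DBIC with hemin, 3772 to 4438 for hemin with DBIC and 1218 to 1758 for the combination against Ctrl. Damped rises ranged from 1170 to 1352, damped falls from 636 to 834, enlarged effects from 9 to 13, opposed hemin effects from 11 to 24, departures with neither called from 77 to 110 and those beyond both from 48 to 96, and 35.3% to 40.0% of departures were higher. The cause of these shifts was not tested beyond the fewer samples of each fit.

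Of 131 named genes past the threshold, 2625 of 2747 values under the alternatives kept direction and call, 122 lost the call and 0 reversed. On the linear scale 129 of the 131 kept their direction, and ALAS1 and TMED7-TICAM2 reversed, at -2.92 and -1.84 CPM. Depth limits the genes under about 1 CPM, such as CXCL2, CXCL3, EGR2, IL6, IL32 and TNFRSF9 in Ctrl.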
